A study of Mus musculus with 6 samples.

Results

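MicroRNAs of oocytes before and during growth in young mice were compared on 4 of the 6 one-colour Agilent arrays of the series. Young large oocytes (2 arrays) came from C57BL/6 mice of 6 to 8 weeks, measured 60 to 80 µm across and are labelled as growing. Young small oocytes (2 arrays) came from C57BL/6 mice of the same age and measured 20 to 50 µm; they are titled non-growing, and a further label puts them in primordial follicles. The other 2 arrays hold large oocytes of C57BL/6 mice aged 41 to 43 weeks (42 to 44 weeks in their descriptions). They entered the shared estimate of the spread, and their values are given beside the others for part of the microRNAs. No group carries a genetic change or a treatment in the labels. The members are the mouse microRNA entries that the deposited detection call marks as detected on both arrays of young large or of young small oocytes, which were 93 of the 567 mouse entries. Oocytes were pooled by diameter and each sample was run in duplicate, per the series text, which names no separate animals or pools, so p-values cover the spread of arrays alone, which can be technical.

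A mouse oocyte rests in a primordial follicle, surrounded by flat pregranulosa cells, until it is recruited to grow, and while it grows it makes and stores RNA for the first divisions of the embryo. A microRNA is cut from a hairpin transcript, in most cases by Drosha with Dgcr8 and then by Dicer, and one strand is loaded into an Argonaute protein. It then pairs with messenger RNAs mainly through its seed, the stretch near its 5′ end that starts at base 2 and ends at base 8. Mouse oocytes make microRNAs, but microRNA repression is known to be weak in grown oocytes, where loss of Dgcr8 is tolerated. The miR-290 to miR-295 cluster is best known from mouse embryonic stem cells and the early embryo, and the let-7 family from differentiated cells.

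Of the 93 members, 76 were matched by name to a mature sequence in the RefSeq table of build GRCm38.p6, and the sequences shown here are RefSeq's, written 5′ to 3′ with the seed in capitals. Shown first are the matched members that hold the hexamer aagugc near their 5′ end: 3 that rose (miR-295, miR-291a-3p and miR-294) and 4 from the miR-17-92 group, of which miR-20a, miR-20b and miR-93 fell on the scale used here but not without scaling, and miR-106b did not pass. In the first 3, from the stem cell cluster, the hexamer starts at base 2:
miR-295: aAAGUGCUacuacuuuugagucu
miR-291a-3p: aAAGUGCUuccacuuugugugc
miR-294: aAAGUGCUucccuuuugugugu
In the miR-17-92 group it starts at base 3, so the seed is moved by 1 base:
miR-20a: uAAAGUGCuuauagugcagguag
miR-20b: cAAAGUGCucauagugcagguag
miR-93: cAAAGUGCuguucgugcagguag
miR-106b: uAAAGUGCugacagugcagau
A count over the table took each mouse mature name once and left out 1 chromosome. Of these 1679 sequences, 19 (1.13%) hold the hexamer on their own strand within bases 1 to 9. The 7 members shown (9.21% of those matched) are among them. The match is a description of the letters and not of a target.

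The let-7 family is shown because all 7 of its members shared one seed and, on the scale used here, one direction:
let-7a: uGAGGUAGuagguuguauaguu
let-7b: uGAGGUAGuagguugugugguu
let-7c: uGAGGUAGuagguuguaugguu
let-7d: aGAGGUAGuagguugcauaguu
let-7f: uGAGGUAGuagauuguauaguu
let-7g: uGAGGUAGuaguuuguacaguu
let-7i: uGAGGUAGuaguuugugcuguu
Their members differ little outside the seed. let-7b and let-7c differ at 1 base of 22, as do let-7a and let-7f and likewise let-7a and let-7c. Hybridisation of one to the probes of another was not tested. The seeds of further microRNAs that rose are shown for comparison:
miR-30a: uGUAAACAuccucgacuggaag
miR-30e: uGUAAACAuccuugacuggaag
miR-30c: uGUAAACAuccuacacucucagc
miR-103: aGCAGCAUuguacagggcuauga
miR-107: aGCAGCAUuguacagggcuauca
miR-652: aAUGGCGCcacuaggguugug
miR-193: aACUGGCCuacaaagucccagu
miR-223: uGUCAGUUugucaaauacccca
The 76 matched members carried 56 seeds, of which 10 were shared by 2 or more members. These 10 seeds held 30 members, and no seed had a microRNA that rose beside one that fell.

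The arrays differed in brightness before any scaling, and the direction of many results rests on how that was handled. The deposited signal is a background-subtracted intensity in arbitrary units. Of the 93 members, 92 had a higher raw signal on both young large arrays than on either young small array, and the median raw signal was 2.76-fold higher in young large oocytes over the 90 members with a raw signal above 0 on all 4 young arrays. The exception was miR-345-5p, with raw signals of 9.59 and 17.5 in young large oocytes and 9.82 and 9.18 in young small oocytes. The smallest of these raw folds was 1.25, for miR-291b-5p; for members not detected in young small oocytes the raw fold has a denominator that is not above background. The amount of RNA put on each array is not given in the sources used here, so a larger amount of microRNA per oocyte, more oocytes per pool and a larger hybridised amount cannot be told apart. For the values that follow, each array was divided by a factor from the 75th percentile of the 56 entries detected on all 6 arrays, and the factors of the young large arrays were 1.94 and 1.48, those of the aged large arrays 0.954 and 1.06 and those of the young small arrays 0.582 and 0.589. A scaled signal is thus a share relative to those entries. The direction of each result holds on that scale, which is linear and in arbitrary units, and a log2 change was taken after a floor of 6.17, the highest over the arrays of the lowest detected scaled signal.

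**Figure D1:**
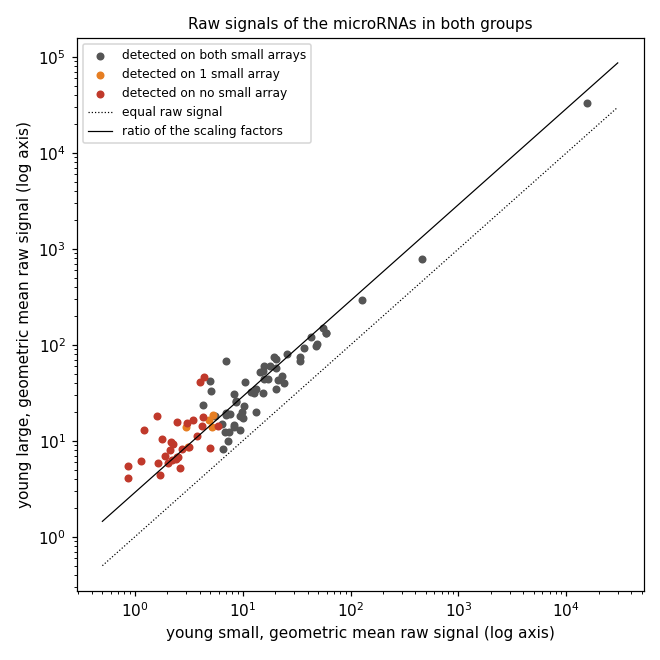
Geometric mean of the raw signal in young large (vertical axis) against young small oocytes (horizontal axis), both log axes in arbitrary units, for 90 microRNAs detected on both arrays of young large oocytes. All points lie above the dotted line of equal signal, and they scatter around the solid line, which is the 2.90-fold ratio of the scaling factors.

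Young large oocytes had more microRNAs called detected. Both young large arrays detected all 93 members, and both young small arrays detected 55 of them; 5 more were detected on 1 small array and 33 on neither. No mouse entry was detected on both small arrays and on neither large array. Over all mouse entries the arrays detected 101 and 96 in young large, 78 and 88 in aged large and 56 and 59 in young small oocytes, an order that goes with brightness. Of the 33 seen in large oocytes alone, 11 had a scaled signal above the floor on both young large arrays, 8 rose, 10 were tested and did not pass, and 15 were at the floor on all 6 arrays and were not tested. Both aged large arrays detected 13 of the 33 and neither aged large array detected 11. Of the 11 above the floor, miR-140, miR-183 and miR-148a did not pass. At this depth the microRNAs that did not rise cannot be told from ones present in small oocytes under the limit of the dimmer arrays. For those that rose, the missing detection call does not show absence from small oocytes.

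The edge of the detection call was not an edge of signal. miR-762 was a member with raw signals of 3.07 and 1.40 in young large oocytes, the lowest called detected. miR-29c was no member, since 1 young large array detected it, yet its raw signals were 10.9 and 7.28 in young large oocytes and 3.02 and 3.91 in young small oocytes. It was 1 of 11 mouse entries detected on only 1 young large array; miR-17 and miR-290-3p, which belong to the groups above, were others.

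The comparison asks, as the series text puts its aim, which microRNAs go with oocyte growth. The stem cell microRNAs miR-294, miR-295, miR-291a-3p and miR-292-3p and the myeloid microRNA miR-223 were at least 2-fold higher in young large oocytes, and the let-7 family and several miR-17-92 microRNAs were lower by less than 2-fold on this scale but not without scaling. Of the 93 members 78 could be tested, and 39 (50.0%) passed a Benjamini-Hochberg adjusted p of 0.05 in limma. Among those tested, 19 (24.4%) were higher and 20 (25.6%) lower in young large oocytes, and the median log2 change was -0.06. Of the 19 higher ones 8 were detected on no young small array and so were members only through the group where they are high, and among entries detected on all 6 arrays 11 were higher and 20 lower. An unadjusted p under 0.05 was found for 45, and the 2 arrays of each group did not overlap for 60 (76.9%). Lack of overlap, named for single microRNAs below, was thus common among those tested. A fold of at least 2 with an adjusted p under 0.05 was found for 5 higher and 0 lower microRNAs.

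**Figure D2:**
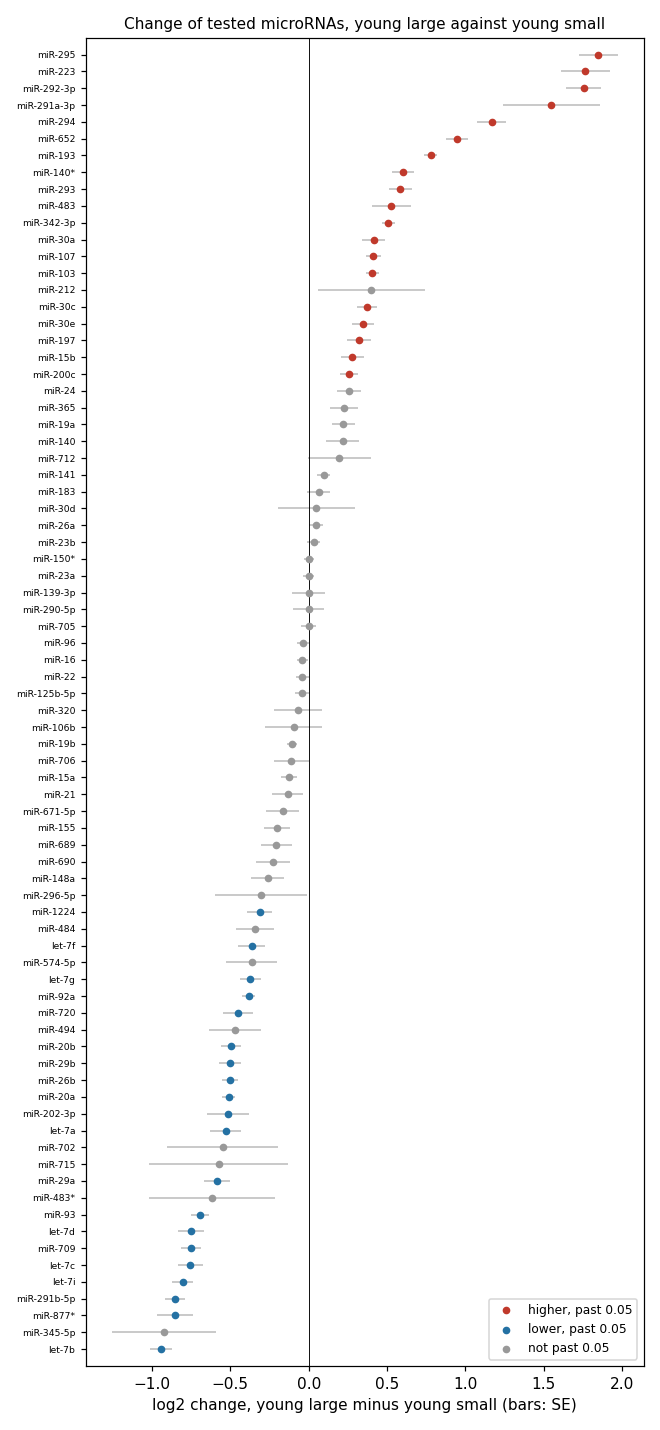
log2 change of the 78 tested microRNAs in young large minus young small oocytes, with bars of 1 SE from limma, sorted by size. The changes run from 1.85 for miR-295 to -0.94 for let-7b, and 5 microRNAs lie past 1.

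The miR-290 to miR-295 cluster held the largest rises. Of 14 entries of the cluster on the array 7 were members and were tested. Of these 7, 5 rose, 1 fell and 1 did not pass, beside 24.4% higher and 25.6% lower over all tested. Their median log2 change was 1.17 beside -0.06 over all microRNAs tested. The list was chosen with these values known, so the count is a description. The hairpins of the 6 members matched to RefSeq lie within 2216 bp of chromosome 7 (chr7:3218626-3220841, GRCm38.p6, plus strand). miR-295, whose seed is that of the stem cell microRNAs of the cluster, had scaled signals of 26.2 and 28.2 in young large, 21.4 and 20.9 in aged large and 6.70 and 8.48 in young small oocytes. Both large groups lay above the small one without overlap, and no small array called it detected. Its log2 change was 1.85 ± 0.13 (SE; adjusted p = 0.00125, limma), or 3.60-fold, against young small signals that were not called detected.

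miR-292-3p was detected on all 6 arrays, with 38.4 and 41.5 in young large, 50.1 and 50.04 in aged large and 10.7 and 13.05 in young small oocytes. This made a log2 change of 1.75 ± 0.11, or 3.37-fold (SE; adjusted p = 0.00125, limma). miR-294 had 18.9 and 20.4 in young large, 21.2 and 21.1 in aged large and 9.46 and 8.07 in young small oocytes, a change of 1.17 ± 0.09 (SE; adjusted p = 0.00125, limma). In both microRNAs the young large and young small arrays lay well apart and the duplicates close together.

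miR-291a-3p was even between the duplicates of large oocytes and uneven in small ones. It had 23.7 and 25.5 in young large, 20.4 and 19.6 in aged large and 11.5 and 6.17 in young small oocytes, and the log2 change of 1.55 ± 0.31 had the widest error of the 5 that rose (SE; adjusted p = 0.0158, limma). The groups did not overlap, but the call was kept in only 2 of the 6 fits that left out 1 array: it was lost without either young large and without either aged large array. miR-293 had 9.08 and 9.44 in young large, 10.5 and 11.8 in aged large and 5.03 and 3.50 in young small oocytes. No young small array detected it and both its signals there lay under the floor, and it rose by at least 1.55-fold.

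Not all of the cluster went the same way. miR-291b-5p, the 5p arm of another hairpin of the cluster, had 3.73 and 6.23 in young large, 7.18 and 7.31 in aged large and 10.6 and 11.8 in young small oocytes, and it fell by 0.85 ± 0.06 on the log2 scale (SE; adjusted p = 0.00125, limma), although without scaling its change was 0.32. One of its young large arrays lay under the floor, which narrows that error, and its duplicates in young large oocytes were further apart than those of the other members of the cluster that passed. The ratio of miR-291a-3p to miR-291b-5p within an array, which needs no scaling, was 6.36 and 4.10 in young large, 2.85 and 2.68 in aged large and 1.08 and 0.522 in young small oocytes. miR-290-5p was called detected on both young large arrays but lay under the floor on all 4 young arrays, with 4.55 and 4.90 in young large and 3.23 and 4.11 in young small oocytes, while the aged large arrays had 15.6 and 12.8. Of the 15 genomic clusters of members (hairpins within 10 kb), this was the only one with changes in both directions.

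**Figure D3:**
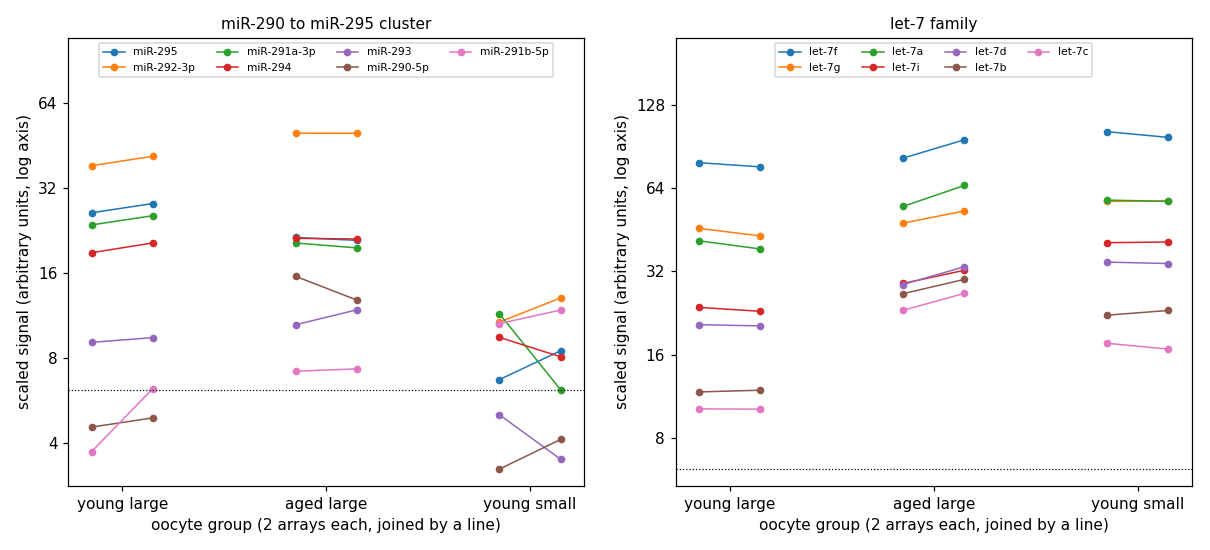
Scaled signal per array (arbitrary units, log axis) of the 7 members in the miR-290 to miR-295 cluster (left) and of the let-7 family (right); the 2 arrays of a group are joined by a line, and the dotted line is the floor of 6.17. Most cluster members are higher in young large than in young small oocytes, with miR-291b-5p below, and all 7 let-7 members are lower, on this scale.

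The let-7 family was lower in young large oocytes on this scale, and higher without scaling. All 7 tested members fell, beside 25.6% of all microRNAs tested, with a median log2 change of -0.75. A further 2 family members, let-7e and miR-98, were not detected on both arrays of either group. let-7b had scaled signals of 11.7 and 11.9 in young large, 26.6 and 29.96 in aged large and 22.2 and 23.1 in young small oocytes, a fall of 0.94 ± 0.07 on the log2 scale (SE; adjusted p = 0.00125, limma); without scaling the change turned to 0.59. The fall was 0.81 ± 0.07 for let-7i, with 23.7 and 22.96 in young large, 28.96 and 32.3 in aged large and 40.7 and 40.9 in young small oocytes (SE; adjusted p = 0.00125, limma; 0.73 without scaling). In both microRNAs the duplicates of the young groups lay close together and the groups far apart.

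The 7 members did not change equally. let-7c had 10.2 and 10.2 in young large, 23.2 and 26.6 in aged large and 17.6 and 16.8 in young small oocytes. Its fall of 0.76 was close to the 0.75 of let-7d (0.78 for each without scaling). let-7d had 20.5 and 20.3 in young large, 28.7 and 33.3 in aged large and 34.6 and 34.2 in young small oocytes. let-7a (log2 change -0.53), let-7g (-0.37) and let-7f (-0.36) changed least, and the direction of let-7f and let-7g turned under 3 of the 7 scalings. let-7a had 41.3 and 38.6 in young large, 55.0 and 65.5 in aged large and 58.0 and 57.4 in young small oocytes. The ratio of let-7f to let-7i within an array was 3.34 and 3.33 in young large, 2.84 and 2.96 in aged large and 2.52 and 2.39 in young small oocytes, which shows the uneven change without any scaling. The call depends on the scaling: beside 7 of 7 lower on the scale used here, 5 passed as lower with the median, 4 after quantile normalization, 2 with the hur control entries, 1 with the total signal and 0 with the 75th percentile of all mouse entries, and without scaling all 7 passed as higher. The family's median change was negative in 6 of the 7 scalings, -0.26 with all mouse entries, and 0.78 with no scaling. The 3 members on chromosome 13 (let-7a, let-7d and let-7f) and the pair on chromosome 15 (let-7b and let-7c) each changed in 1 direction, though hairpins of some members lie at more than 1 locus.

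Cluster and let-7 members can also be set against each other within an array, where no scaling enters, and the pair shown joins a large rise with the largest fall. The signal of miR-292-3p over that of let-7b was 3.27 and 3.49 in young large, 1.88 and 1.67 in aged large and 0.482 and 0.564 in young small oocytes. The young large ratio was 6.48-fold the young small one, and the 3 groups did not overlap. A ratio of this kind shows unequal change and not which of the pair changed.

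miR-17-92 and its paralog clusters are known for promoting proliferation, and their microRNAs were lower or did not pass on this scale, while without scaling miR-20a, miR-20b, miR-92a and miR-93 were higher. Of 13 entries, 9 were members and 7 were tested. Of these 7, 0 rose, 4 fell and 3 did not pass, beside 24.4% higher and 25.6% lower over all tested. The median log2 change of -0.38 was negative under 4 of the 7 scalings. miR-20a had scaled signals of 56.9 and 57.5 in young large, 42.5 and 44.5 in aged large and 82.1 and 80.99 in young small oocytes, and it fell by 0.51 ± 0.04 on the log2 scale (SE; adjusted p = 0.00125, limma; 1.02 without scaling). miR-20b, which differs from it at 2 bases of 23, fell by 0.50 (1.04 without scaling). It had 27.2 and 28.2 in young large, 20.2 and 22.2 in aged large and 38.2 and 39.99 in young small oocytes. Both large groups lay under the small one for each of the pair.

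miR-93 had 7.51 and 7.05 in young large, 6.35 and 6.72 in aged large and 12.1 and 11.5 in young small oocytes. It fell by 0.69 ± 0.06 (SE, limma, adjusted p = 0.00125), and its change without scaling was 0.84. It lies in an intron of Mcm7 on chromosome 5 with miR-106b and miR-25. miR-106b did not pass, with 7.96 and 8.53 in young large and 7.37 and 10.5 in young small oocytes, and miR-25 was at the floor on every array. miR-92a fell by 0.38, with 76.04 and 80.1 in young large, 90.2 and 88.4 in aged large and 102 and 102 in young small oocytes. Its change turned to 0.11, 0.037 and 1.15 under scaling by all entries, by the total signal and with no scaling.

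The members with a hairpin in the polycistron on chromosome 14 moved unequally. miR-19b and miR-92a also have a hairpin on the X chromosome, so their signal cannot be assigned to this locus alone. miR-19a (log2 change 0.22) and miR-19b (-0.11) did not pass, and miR-18a was at the floor. The change of miR-19a was positive under all 7 scalings and passed under 4 of them. The ratio of miR-19b to miR-20a within an array was 1.55 and 1.55 in young large, 1.42 and 1.37 in aged large and 1.16 and 1.18 in young small oocytes, so that young large oocytes had 1.32-fold the ratio of young small ones. The ratio of miR-92a to miR-20a differed less, by 1.09-fold.

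On this scale the microRNAs with the shared hexamer fell into opposite calls. miR-295, miR-291a-3p and miR-294 rose, miR-20a, miR-20b and miR-93 fell, and miR-106b did not pass. The ratio of miR-294 to miR-20a was 0.332 and 0.355 in young large, 0.4996 and 0.475 in aged large and 0.115 and 0.0997 in young small oocytes, a 3.21-fold difference between the young groups that no scaling alters. That of miR-294 to miR-93 was 2.51 and 2.90 in young large and 0.785 and 0.702 in young small oocytes, 3.64-fold apart.

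The miR-30 family, abundant in many tissues, was modestly higher in young large oocytes. Of 5 members 4 were tested, and miR-30b was at the floor. miR-30a, miR-30c and miR-30e rose, beside 24.4% of all microRNAs tested, and miR-30d did not pass. The median log2 change of 0.36 was positive under all 7 scalings. miR-30a had 22.9 and 25.3 in young large, 18.7 and 17.4 in aged large and 17.9 and 18.2 in young small oocytes, a change of 0.41 ± 0.07 (SE; adjusted p = 0.00995, limma). miR-30c changed by 0.37 and miR-30e by 0.35. The last pair share an intron of Nfyc on chromosome 4, and miR-30c has a further hairpin on chromosome 1. Their ratio overlapped between the young groups, with 1.74 and 1.66 in young large and 1.81 and 1.66 in young small oocytes. miR-30d was uneven between the young large arrays, with 12.03 and 19.4 there and 14.3 and 15.2 in young small oocytes.

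miR-103 and miR-107, which lie in introns of the pantothenate kinase genes Pank3, Pank2 and Pank1 and differ at 1 base of 23, rose alike. miR-107 had 35.2 and 36.2 in young large, 32.9 and 34.6 in aged large and 27.3 and 26.4 in young small oocytes, a log2 change of 0.41 ± 0.05 (SE; adjusted p = 0.00261, limma). miR-103 had 44.02 and 44.3 in young large, 41.2 and 41.3 in aged large and 32.4 and 34.2 in young small oocytes, a change of 0.41 ± 0.04. The groups did not overlap in either. The ratio of miR-107 to miR-103 was 1.004-fold between the young groups.

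In the family of miR-15 and miR-16, 1 of 3 members rose, beside 24.4% of all microRNAs tested. miR-15b, from an intron of Smc4 on chromosome 3, had 42.3 and 41.7 in young large, 37.9 and 42.2 in aged large and 33.3 and 36.1 in young small oocytes, a log2 change of 0.28 ± 0.07 (SE; adjusted p = 0.0344, limma). miR-16 (log2 change -0.04) and miR-15a (-0.13) did not pass. miR-16 is also made at a locus on chromosome 14 beside miR-15a. The ratio of miR-15b to miR-16 was 0.591 and 0.597 in young large, 0.664 and 0.736 in aged large and 0.458 and 0.496 in young small oocytes, while that of miR-15a to miR-16 was 0.285 and 0.298 in young large and 0.310 and 0.309 in young small oocytes.

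Both tested members of the miR-29 family, which is known to target collagen and DNA methyltransferase messages, fell on this scale. Over all microRNAs tested 25.6% fell. miR-29a had 10.3 and 11.4 in young large, 10.5 and 11.6 in aged large and 15.6 and 16.8 in young small oocytes, a fall of 0.59 ± 0.09 on the log2 scale (SE; adjusted p = 0.0057, limma; 0.95 without scaling). miR-29b had 18.5 and 18.8 in young large, 16.5 and 18.3 in aged large and 27.2 and 25.5 in young small oocytes. It fell by 0.50 (1.03 without scaling). A locus of 434 bp on chromosome 6 holds both miR-29a and miR-29b, and miR-29b has a further hairpin on chromosome 1. Their ratio differed little between the young groups, by 0.943-fold.

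In the miR-26 family, whose members lie in introns of the Ctdsp genes, 1 of 2 fell, beside 25.6% of all microRNAs tested. miR-26b had 12.01 and 11.8 in young large, 9.45 and 10.2 in aged large and 16.97 and 16.8 in young small oocytes, and it fell by 0.50 ± 0.05 (SE; adjusted p = 0.00228, limma; 1.03 without scaling). miR-26a did not pass, with 14.9 and 15.3 in young large and 14.7 and 14.6 in young small oocytes. The ratio of miR-26a to miR-26b was 1.24 and 1.30 in young large, 1.28 and 1.13 in aged large and 0.868 and 0.869 in young small oocytes, so the pair changed unequally by 1.46-fold.

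Among microRNAs hosted singly in introns, 3 of 4 tested rose, beside 24.4% of all microRNAs tested, and 2 of the 4 are arms of 1 hairpin. miR-652, in Tmem164 on the X chromosome, had 13.7 and 14.2 in young large, 16.2 and 16.3 in aged large and 7.70 and 6.80 in young small oocytes, a log2 change of 0.95 ± 0.07 or 1.93-fold (SE; adjusted p = 0.00125, limma). miR-342-3p, in Evl, had 10.3 and 10.6 in young large, 15.1 and 14.9 in aged large and 7.17 and 7.52 in young small oocytes, where it was not called detected, and the fitted fold was 1.42. Neither overlapped between the young groups.

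miR-140* and miR-140 are the arms of 1 hairpin in Wwp2, and on the scale used here only the first of them passed as higher. miR-140* had 9.29 and 9.92 in young large, 7.75 and 7.04 in aged large and 5.47 and 6.496 in young small oocytes. The fitted fold was 1.52 (limma, adjusted p = 0.00301) and the bound at least 1.57-fold, with 1 young small signal under the floor. miR-140 had 7.79 and 9.01 in young large and 6.71 and 7.74 in young small oocytes and did not pass. Its change was positive under all 7 scalings and passed under 4 of them, while the call of miR-140* was lost after quantile normalization. The difference between the arms was not tested, and the ratio of miR-140* to miR-140 was 1.19 and 1.10 in young large and 0.814 and 0.839 in young small oocytes, where neither arm was called detected.

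miR-193 rose and was not detected in small oocytes. Its scaled signals were 10.8 and 10.4 in young large, 5.61 and 6.25 in aged large and 1.98 and 3.81 in young small oocytes. The log2 change after the floor was 0.78 ± 0.04 (SE, limma, adjusted p = 0.00125), and the bound was at least 1.77-fold. Both young small signals lay under the floor, which narrows that error. With a lower floor the change was 1.94 (limma, adjusted p = 0.0104). miR-365, a frequent neighbour of the miR-193 genes, did not pass, with 33.2 and 38.6 in young large and 31.6 and 29.6 in young small oocytes. Their ratio within an array was 0.325 and 0.269 in young large, 0.171 and 0.186 in aged large and 0.0628 and 0.129 in young small oocytes.

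miR-223, known from myeloid cells and not from oocytes, had the second largest rise. It had 23.7 and 24.95 in young large, 50.5 and 54.3 in aged large and 8.30 and 5.61 in young small oocytes, a log2 change of 1.76 ± 0.16 or 3.40-fold (SE; adjusted p = 0.0014, limma), against young small signals that were not called detected. Its lower young small signal lay under the floor, and without the floor the log2 change was 1.83. Of 7 blood markers miR-223 alone was detected on an array. The summed raw signal of the 7 was 51.8 and 41.2 in young large, 50.7 and 60.6 in aged large and 6.76 and 6.63 in young small oocytes. The raw sum holds the difference in brightness. After scaling the sum was 26.6 and 27.7 in young large, 53.2 and 57.2 in aged large and 11.6 and 11.2 in young small oocytes. The other 6 markers, miR-142-3p, miR-451 and miR-486 among them, reached at most 2.24 in raw signal and were called detected on no array. The part of blood cells in the rise of miR-223 was not tested.

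On the scale used here, markers of the cell types around an oocyte did not pass the test or were not detected. Among 7 granulosa cell markers the arrays detected miR-21 and miR-212, and neither passed on this scale. The median change of the pair was positive under all 7 scalings. After quantile normalization 1 of them passed as higher, and without scaling 2 did. miR-21 had 10.7 and 11.2 in young large, 10.1 and 11.4 in aged large and 12.97 and 11.2 in young small oocytes. miR-212 had 8.58 and 7.71 in young large, 15.6 and 7.88 in aged large and 5.76 and 4.41 in young small oocytes. The young groups did not overlap for miR-212, both its young small signals lay under the floor, and its log2 change was 0.40 ± 0.34 (SE). The scaled sum of the 7 was 20.1 and 19.3 in young large, 26.2 and 19.7 in aged large and 19.3 and 15.6 in young small oocytes. miR-132, miR-224, miR-378, miR-383 and miR-503 were detected on no array, nor was any of 4 stroma and smooth muscle markers, which include miR-143 and miR-145, or either arm of the endothelial miR-126. The array measures no messenger RNA, so the oocyte label could not be checked against oocyte genes.

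miR-483, from an intron of the imprinted growth factor gene Igf2, was slightly higher. It had 8.88 and 9.02 in young large, 139 and 109 in aged large and 4.37 and 6.24 in young small oocytes. The fitted fold was 1.44 (limma, adjusted p = 0.0256) and the bound at least 1.49-fold. The young arrays lie far under the aged large ones. The call was lost when either young large or either young small array was left out, and the other arm, miR-483*, did not pass, with 4.97 and 13.8 in young large and 14.9 and 13.4 in young small oocytes.

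miR-483* was 1 of 5 members whose signal differed at least 2-fold between the young large arrays, each of them lower on array 1. The others were miR-345-5p, miR-484, miR-702 and miR-715, of which miR-345-5p had 4.94 and 11.8 in young large and 16.9 and 15.6 in young small oocytes and miR-715 4.91 and 14.8 in young large and 15.1 and 13.5 in young small oocytes. None of the 5 passed. No microRNA detected on both arrays of aged large or of young small oocytes differed that much between duplicates.

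The entries miR-709 and miR-720 were among those that fell. miR-709, which has been described in the nucleus, had 448 and 479 in young large, 706 and 689.5 in aged large and 809.5 and 750.0 in young small oocytes, a fall of 0.75 ± 0.06 (SE; adjusted p = 0.00125, limma; 0.78 without scaling and 0.00 after quantile normalization). miR-720, a fragment of a transfer RNA, had 17747 and 21075 in young large, 27237 and 25332 in aged large and 26134 and 26745 in young small oocytes and fell by 0.45, which turned to 1.08 without scaling and 0.045 under scaling by all entries.

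Of 5 tested entries that are made without Drosha, 2 fell and 3 did not pass, a share to be read beside the 25.6% that fell among all tested. miR-877*, from a mirtron of Abcf1, had 4.63 and 7.61 in young large, 9.40 and 9.20 in aged large and 12.1 and 12.7 in young small oocytes, a fall of 0.85 ± 0.11 (SE; adjusted p = 0.00405, limma; 0.47 without scaling). Its lower young large array was under the floor. The mirtron miR-1224 had 163 and 185 in young large, 227 and 215 in aged large and 222 and 209 in young small oocytes. It fell by 0.31, which turned to 0.18, 0.11 and 1.22 under scaling by all entries, by the total signal and with no scaling. miR-320 (log2 change -0.07), miR-484 (-0.34) and miR-702 (-0.55) did not pass.

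miR-202-3p, a microRNA best known from the gonads, was lower in young large oocytes. It had 25.2 and 25.4 in young large, 41.2 and 31.7 in aged large and 36.6 and 35.8 in young small oocytes, a fall of 0.52 ± 0.13 (SE; adjusted p = 0.0324, limma; 1.02 without scaling). The young groups lay apart with close duplicates, while the aged large arrays lay on either side of the young small ones. The call was lost when either young large or either young small array was left out.

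**Figure D4:**
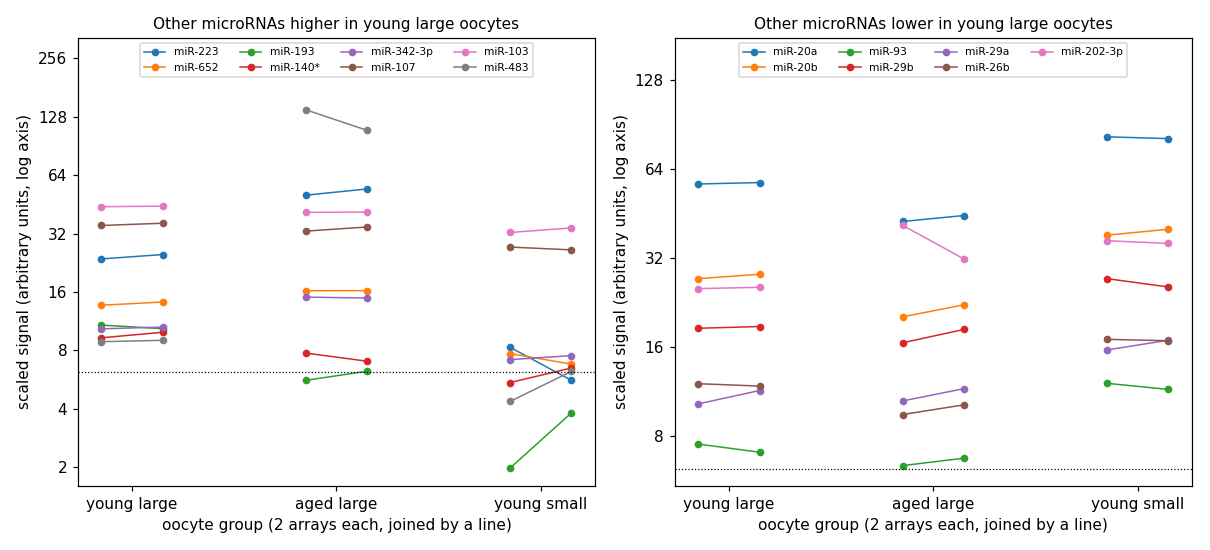
Scaled signal per array (arbitrary units, log axis) of 8 other microRNAs that rose (left) and 7 that fell (right) in young large against young small oocytes; the 2 arrays of a group are joined by a line, and the dotted line is the floor of 6.17. In young small oocytes both arrays of miR-193 and 1 array each of miR-223, miR-140* and miR-483 lie under the floor. In young large oocytes the microRNAs on the right differ from young small oocytes by less than 2-fold.

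Families that are common in epithelia and sensory tissue held 1 small rise on the scale used here. Of the miR-200 family, miR-200c rose slightly, with 30.9 and 31.9 in young large, 31.4 and 28.9 in aged large and 25.8 and 26.7 in young small oocytes and a log2 change of 0.26 ± 0.06 (SE; adjusted p = 0.0206, limma). miR-141, its neighbour within 477 bp of chromosome 6, had 45.99 and 48.3 in young large and 44.1 and 44.2 in young small oocytes and did not pass. The change of miR-141 was positive under all 7 scalings and passed under 4 of them. In the miR-183 cluster neither miR-96 (log2 change -0.04) nor miR-183 (0.06) passed, and miR-182 was at the floor.

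The members of the miR-23, miR-24 and miR-27 clusters did not pass on the scale used here. miR-24 had 10.96 and 10.9 in young large and 8.59 and 9.75 in young small oocytes (limma, adjusted p = 0.0524). Its change was positive under all 7 scalings and passed under 4 of them. miR-23a was under the floor on all 4 young arrays, with 3.45 and 3.03 in young large and 1.36 and 1.58 in young small oocytes, which the floor sets equal; with a lower floor its log2 change was 1.14 and it passed. miR-23b had 6.45 and 5.79 in young large and 2.03 and 4.59 in young small oocytes, and miR-27b was not tested.

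Single members of other families did not pass either. miR-148a had 9.24 and 7.53 in young large and 9.99 and 10.01 in young small oocytes, miR-125b-5p 5.31 and 4.77 in young large and 4.33 and 6.57 in young small oocytes, and miR-494, the single member among 30 entries of the imprinted Dlk1-Dio3 cluster, 54.9 and 66.4 in young large and 86.9 and 80.5 in young small oocytes. These groups overlapped for miR-125b-5p but not for the other pair. Of the 31 members outside every list, 3 rose, 3 fell, 16 did not pass and 9 were not tested. miR-197, outside the lists and the rule for named microRNAs and named after its value was seen, rose by at least 1.29-fold. It had 7.26 and 8.18 in young large and 2.55 and 1.70 in young small oocytes, where it was not detected. Both young small signals lay under the floor.

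The 15 members that could not be tested were at the floor on all 6 arrays. They were miR-18a, miR-25, miR-27b, miR-30b, miR-31, miR-182, miR-301a, miR-328, miR-335-5p, miR-465c-3p, miR-466f-3p, miR-467b*, miR-500, miR-741 and miR-762. Their raw signals in young large oocytes were called detected on both arrays, but their scaled signals were at or under the floor, so no change was tested on it. miR-335-5p, which lies in the imprinted gene Mest, had 7.80 and 5.66 in raw signal in young large oocytes and -0.236 and 0.857 in young small oocytes. miR-31 had 10.8 and 8.05 in young large and 1.58 and 3.25 in young small oocytes. A further 5 were tested only because an aged large array lay above the floor: miR-23a, miR-139-3p, miR-150*, miR-290-5p and miR-705 were at the floor on all 4 young arrays.

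The share of changes in each direction depended on the scaling. The split was 19 higher and 20 lower as used here and also with the median of the same entries. It was 30 higher and 12 lower after quantile normalization, 25 higher and 6 lower with the hur control entries, 29 higher and 4 lower with the total signal, 23 higher and 0 lower with the 75th percentile of all mouse entries and 89 higher and 0 lower without scaling. Of the 39 microRNAs that passed, 15 kept their call under all 7 scalings, and each of the 15 was higher in young large oocytes. They were the 7 named below as kept under both sets of alternatives, with miR-293, miR-30a, miR-30c, miR-30e, miR-103, miR-107, miR-200c and miR-197. Of the 15, miR-295, miR-223, miR-193, miR-342-3p, miR-293 and miR-197 were detected on no young small array. They were members only through the group where they are high. No lower call could be kept under all 7. Without scaling 92 of the 93 members were higher on both young large arrays, and 0 calls were lower. In the 6 fits that left out 1 array 13 calls were kept, 8 higher and 5 lower, and miR-652, miR-342-3p, miR-295, miR-294, miR-292-3p, miR-223 and miR-193 were kept under both sets of alternatives. Without young small array 1 the count was 15, with 10 higher and 5 lower. The calls of let-7c, let-7d, miR-20a, miR-20b, miR-26b, miR-29a, miR-29b, miR-92a, miR-93, miR-103, miR-107 and miR-293 were lost without that array and in no other of these fits. Those of let-7a, let-7f, let-7g, miR-15b, miR-30a, miR-30c, miR-30e, miR-197, miR-200c, miR-202-3p, miR-291a-3p, miR-483, miR-720 and miR-1224 were lost in at least 2 of them.

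**Figure D5:**
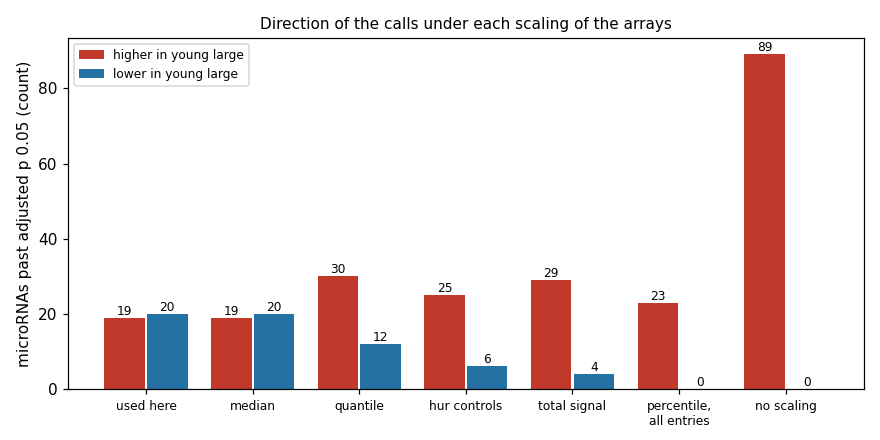
Count of microRNAs past an adjusted p of 0.05 in limma that were higher (red) or lower (blue) in young large than in young small oocytes, under 7 ways to scale the arrays. The lower calls go from 20 on the scale used here to 0 without scaling.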

How the data were processed

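Per the labels and the series text, total RNA of pooled oocytes was hybridised to arrays annotated against miRBase 10.1. Per the submitters' processing notes, Agilent Feature Extraction 9.5 read the images. Per the file headers, the deposited intensity is a total signal per microRNA with an error and a detection call; it is background-subtracted and linear and was not normalized between arrays. Also per the file headers, each microRNA has a fraction of its spots kept as inliers, which was not used. The deposited series table, used as an alternative, repeats these intensities but puts 0 where they lie under 10 (0 entries differed; linear, uncentred, median of each column 0). The median deposited error of detected microRNAs was between 11.4% and 13.2% of the signal, and the 2 arrays of a group had a correlation of log2 signals across detected microRNAs, which are not independent, of 0.980 (young large), 0.992 (aged large) and 0.996 (young small). The number of arrays limits the precision, and the smallest p of an exact permutation test of 2 against 2 arrays is 0.333.

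Scaling and floor are given with the results. The 3 group means were estimated from all 6 arrays (3 residual degrees of freedom) by limma 3.58.1 (lmFit, eBayes; R 4.3.3), two-sided, with Benjamini-Hochberg adjustment over the 78 tested; the prior SD was 0.0605 with 1.30 prior degrees of freedom. Members at the floor on all 6 arrays were left out of the fit. A bound ("at least") compares the young large mean with the higher of the limit and the signal in young small oocytes. The limit is the lowest detected scaled signal of each array, and a bound was not itself tested. Members, 21 family and 4 marker lists were chosen with earlier results of these data known. Named were the 12 largest rises and falls and the lists' members; miR-29c, miR-31, miR-197, miR-335-5p, miR-345-5p, miR-365, miR-715, miR-720 and miR-762 were named outside this rule, once values were known. The 27 alternatives cover scaling, floor, filter, the deposited series table, eBayes, pairing, thresholds and each array left out. Replicate numbers did not pair the samples: deviations of same-numbered arrays correlated with r = 0.16, -0.18 and -0.03 over 78 microRNAs. No RefSeq sequence was matched for 17 members, miR-292-3p among them. Figures were drawn with matplotlib 3.10.9.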

Additional observations from a re-analysis of the deposited data

Results flagged for a closer look

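Entries outside the comparison gave signal on all 4 young arrays. One of the mouse herpesvirus entries, mghv-miR-M1-2, averaged 32.9 in raw signal over the 4 young arrays, with 25.01 and 54.3 in young large and 26.7 and 25.6 in young small oocytes; it was 1 of the 56 entries used for scaling. The control entries hur_1, hur_2, hur_4 and hur_6 averaged 7952, 31712, 3279 and 5808. Each was higher in young large oocytes, for example 4998 and 4271 for hur_4 in young large and 2001 and 1846 in young small oocytes. miRNABrightCorner30, a control at the array's corner, averaged 652, with 761 and 852 in young large and 485 and 509 in young small oocytes. The control mr_1 averaged 556 and ran the other way, with 541 and 491 in young large and 599 and 594 in young small oocytes. What these controls hold is not given in the sources used here, and no test was made on them.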

How the results depend on the processing

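The counts rest on the scaling first. Beside 39 calls (19 higher and 20 lower), there were 23 (23 and 0) with the 75th percentile of all mouse entries, 89 (89 and 0) without scaling, 33 (29 and 4) with the total signal, 42 (30 and 12) after quantile normalization and 31 (25 and 6) with the hur entries; relative to the scale used here these moved the median change by 0.50, 1.53, 0.42, 0.04 and 0.29 on the log2 scale. Only entries detected on all 6 arrays and the values of the deposited series table each gave 11 higher, and a 2-fold threshold 5 calls (5 and 0). With 1 array left out the calls ranged from 15 to 39, the higher from 10 to 18 and the lower from 5 to 21. The replicate number as a block gave 35 calls (17 and 18), and with the young small numbers crossed 39 (18 and 21); as the numbers did not pair the samples, this is no weaker effect. Detection in large oocytes alone fell to 11 where both large signals had to pass the floor. Scaling without the herpesvirus entry and the crossed block were chosen after seeing the data.

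Changes that turned and had passed, here or under the alternative, follow. Without scaling these were positive: let-7a 1.004, let-7b 0.59, let-7c 0.78, let-7d 0.78, let-7f 1.17, let-7g 1.16, let-7i 0.73, miR-106b 1.44, miR-1224 1.22, miR-125b-5p 1.19, miR-148a 1.27, miR-15a 1.41, miR-16 1.50, miR-19b 1.43, miR-202-3p 1.02, miR-20a 1.02, miR-20b 1.04, miR-26b 1.03, miR-291b-5p 0.32, miR-29a 0.95, miR-29b 1.03, miR-320 1.47, miR-484 0.75, miR-494 1.07, miR-702 0.75, miR-709 0.78, miR-720 1.08, miR-877* 0.47, miR-92a 1.15, miR-93 0.84 and miR-96 1.50. With all mouse entries let-7f turned to 0.13, let-7g to 0.12, miR-1224 to 0.18, miR-92a to 0.11 and miR-720 to 0.045; with the total signal let-7f to 0.057, let-7g to 0.048, miR-1224 to 0.11, miR-16 to 0.38, miR-92a to 0.037 and miR-96 to 0.38; after quantile normalization miR-16 to 0.26 and miR-19b to 0.26. Of the other values of single microRNAs, 1252 kept direction and side of the threshold, 188 lost the call and 48 gained one; 35 more, of 12 microRNAs, turned with no call in either setting (miR-106b, miR-125b-5p, miR-148a, miR-15a, miR-16, miR-19b, miR-320 and miR-96 with all mouse entries and with the hur entries among them). The cause of these changes was not tested. Signal over background limits the 15 untested members and every bound.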

Other observations

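Several microRNA groups known from other stages or tissues were not detected on the young arrays. None of the 5 entries of the miR-302 cluster, a seed relative of those in the miR-290 to miR-295 cluster, was detected, and the highest raw signal among them was 1.27. None of the 4 miR-181 entries (highest raw signal 1.24), the pair miR-221 and miR-222 (4.42) or 14 entries of the cluster in an intron of Sfmbt2 (2.94) was detected either, and 29 of 30 entries of the Dlk1-Dio3 cluster were not detected (3.74). In young large oocytes the detection of 33 microRNAs that no small array saw fell to 26 when detection meant a signal of at least 3 times the deposited error and to 29 when it meant a value above 0 in the deposited series table.

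The base composition of the microRNAs overlapped between the calls. Over the matched members the median GC content was 45.5% for 17 that were higher in young large oocytes, 40.9% for 18 that were lower and 45.5% for 31 that did not pass; the range was 34.8% to 61.9%, 31.8% to 66.7% and 31.8% to 75%. This is a description over microRNAs that share families and probes, with no test.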
